A study of Mus musculus with 6 samples.

Results

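Cyclic AMP (cAMP) is the messenger by which bile duct cells turn hormone signals into secretion, and 10 genes of its production, breakdown and response were followed here in mouse biliary epithelial cells with and without primary cilia. They were taken by symbol from the gene count table, as 10 of its 32061 genes, and comprised the adenylyl cyclase genes Adcy3, Adcy6, Adcy7 and Adcy9, the phosphodiesterase genes Pde4a, Pde4b and Pde4d, the transcription factor gene Crem, and Prkar1a and Prkar2b, which encode regulatory subunits of protein kinase A. The cells called cilia depleted (3 samples) had received 4OHT, the usual abbreviation of 4-hydroxytamoxifen, and those called cilia competent (3 samples) had not. All 6 samples came from hand-picked mouse bile ducts that were passaged as organoids and then grown flat on collagen. The labels give neither the strain, age or genotype of the mice, nor the deleted gene, nor the driver of the recombinase that 4OHT is commonly used to activate. Because every depleted sample had 4OHT and no competent sample did, the drug and the loss of cilia cannot be told apart. The labels also do not say whether samples of a group came from separate animals or cultures, and the spread behind each p-value is that between the samples as deposited, which could be technical only.

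Adenylyl cyclases are membrane enzymes that make cAMP from ATP, driven by the G protein Gs and, for several isoforms, restrained by Gi. Phosphodiesterases of the PDE4 family break cAMP down. The cAMP that remains releases the catalytic subunits of protein kinase A from their regulatory subunits, and the kinase phosphorylates CREB-family factors in the nucleus and the chloride channel CFTR at the cell surface. In cholangiocytes the hormone secretin acts through this chain to drive bicarbonate-rich secretion, and the primary cilium carries parts of the same machinery, among them adenylyl cyclases.

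Total counts were 26293486 to 36998935 in depleted and 32199606 to 36093068 in competent libraries, so that 3 counts, used as a detection floor, equalled 0.0797 to 0.119 CPM, the usual abbreviation for counts scaled to library size. Such floors cover counting error only. Across the table, 9576 of 13839 genes tested (69.2%) differed at an adjusted p below 0.05 (edgeR's quasi-likelihood test with Benjamini-Hochberg adjustment, used for every adjusted p below), and 10030 genes (72.5%) had groups that did not overlap. Wdr35, taken as the deleted gene from knowledge of the study, had 739, 914 and 925 counts in depleted and 1211, 1148 and 1200 counts in competent samples. Scaled to library size, these were 29.3, 28.5 and 26.2 CPM in depleted and 35.55, 32.5 and 31.9 CPM in competent samples. The gene was 1.19-fold lower in depleted cells (log2 change -0.25, adjusted p = 0.00245), where 34.3% of all genes tested were called lower. Loss of a single exon would not be seen in such gene totals. All 10 biliary markers examined were detected, among them Krt19 at a low level, with 8.33 CPM in depleted and 12.5 CPM in competent cells on average. Markers of other liver cells were near the floor or low: the summed level of 6 endothelial markers was 0.624 to 0.736 CPM in depleted and 0.176 to 0.664 CPM in competent samples. The sum of 9 stellate cell and fibroblast markers was 2.80 to 3.57 CPM in depleted and 1.27 to 1.65 CPM in competent samples, nearly all of it Col1a1, with Col1a2, Col3a1 and Lum at 0. Sums over 7 leukocyte markers were 5.38 to 6.30 CPM in depleted and 3.41 to 3.93 CPM in competent samples, most of it Cd68. Sums over 8 hepatocyte markers were 16.5 to 18.3 CPM in depleted and 19.4 to 26.8 CPM in competent samples, with Cyp3a11 at 0. Most of this was Ttr, at 11.3 CPM in depleted and 16.0 CPM in competent cells on average, above Krt19. The part of these cells in the results was not tested.

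The cAMP-responsive element, the DNA site bound by CREB and CREM, has the palindrome TGACGTCA as its full form and TGACG as its core. Both were searched on both strands in the 250 bases before each RefSeq start site (build GRCm38.p6), with the core counted also where it lies inside the full form. Windows of 8 of the 10 genes were searched. No window of Adcy6 or Crem was searched, so whether their upstream sequences hold the core or the palindrome was not tested. The core occurred in 7 of the 22 windows searched for the 8 genes (31.8%), against 17.8% of 32851 windows in the whole table. The full palindrome occurred in 1 of the 22, against 1.55% of all windows. Genes with several windows share sequence between them, and a match of letters does not show binding. Windows of 5 genes held the core. Of these, Adcy9 (1 of 1 windows), Pde4a (1 of 3) and Pde4b (1 of 4) rose in depleted cells. Prkar1a (3 of 6) fell, and Adcy7 (1 of 3) did not pass. No core was found for Pde4d (1 window), which rose, Prkar2b (2 windows), which fell, or Adcy3 (2 windows), which did not pass. A gene with more windows had more chances of a match. The stretches below were picked from genes with a core. They lie upstream of RefSeq start sites of a phosphodiesterase and a cyclase gene that rose and of a regulatory subunit gene that fell. Capitals mark the core (CGTCA where it reads on the opposite strand) or, for Prkar1a, the full palindrome, and each sequence runs 5′ to 3′ on the strand of its gene.
Pde4a, chr9:21183981-21184100, plus strand, core starting 50 bases before the start site: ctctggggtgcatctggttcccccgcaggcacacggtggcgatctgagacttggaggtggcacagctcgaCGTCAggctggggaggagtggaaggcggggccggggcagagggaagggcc
Adcy9, chr16:4420499-4420618, minus strand, core starting 24 bases before the start site: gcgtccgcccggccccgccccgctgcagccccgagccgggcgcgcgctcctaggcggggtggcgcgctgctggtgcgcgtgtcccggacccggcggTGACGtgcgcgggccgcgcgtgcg
Prkar1a, chr11:109650889-109650918, plus strand, palindrome starting 49 bases before one start site and 38 bases after another: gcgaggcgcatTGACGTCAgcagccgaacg

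All 10 genes passed the filter on low counts and were tested. Of these, 5 rose in depleted cells (Pde4b, Pde4a, Pde4d, Adcy9 and Adcy6), 3 fell (Prkar2b, Crem and Prkar1a) and 2 did not pass (Adcy3 and Adcy7). The 8 calls stand beside a background in which 69.2% of all genes tested were called, 34.9% as higher and 34.3% as lower in depleted cells, so the number called is close to what the table as a whole gives. The groups did not overlap for the same 8 genes, where 72.5% of all genes tested had no overlap. The median log2 change of the 10 genes was 0.22, against -0.01 for all genes tested, and their median absolute log2 change was 0.41, against 0.38. In bulk RNA, fewer cells that express a gene and less of its RNA per cell cannot be told apart.

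**Figure D1:**
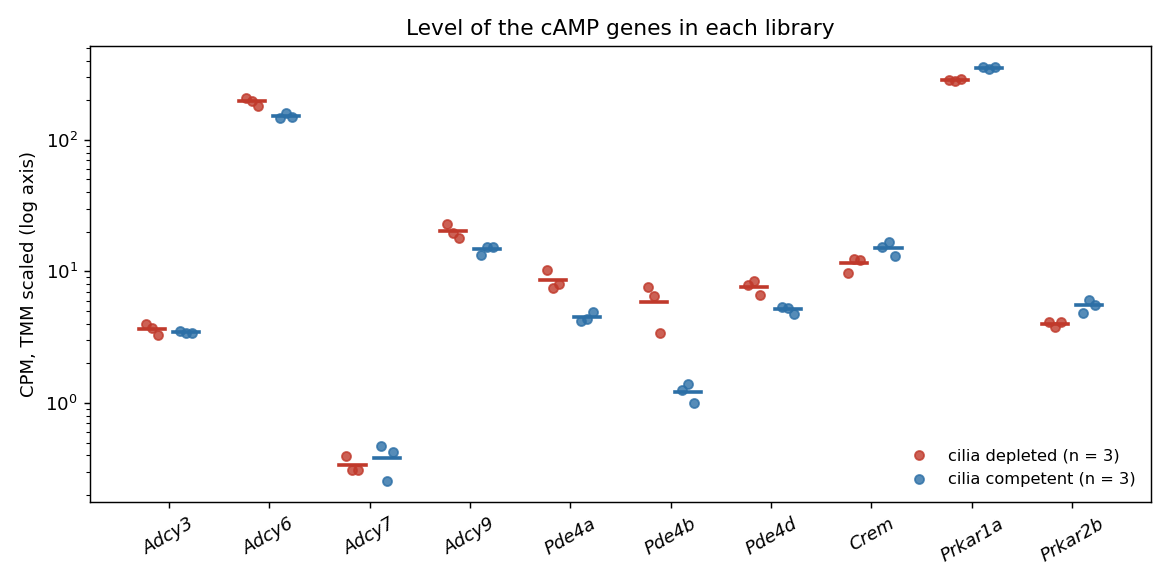
CPM scaled by TMM, on a log axis, of the 10 cAMP genes, with a point for each of the 3 depleted (red) and 3 competent (blue) libraries and a line at the group mean. Prkar1a and Adcy6 lie above 100 CPM in every library, Adcy7 below 1, and Pde4b shows the widest gap between the groups.

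The cyclase genes were dominated by Adcy6. Adcy6 (ENSMUSG00000022994; GRCm38 chromosome 15, 98589973 to 98610076, minus strand) encodes a cyclase that Gi and calcium inhibit and that has been located in cholangiocyte cilia of the rat. Its level was 209, 198 and 181.5 CPM in depleted cells and 146, 159 and 150.3 CPM in competent cells. Every depleted library was above every competent library, and the gene rose 1.29-fold (log2 change 0.37, SE 0.054, adjusted p = 3.98e-05). Adcy9 (ENSMUSG00000005580; chromosome 16, 4287529 to 4420498, minus strand), which encodes a cyclase that responds poorly to forskolin, had 22.8, 19.5 and 18.1 CPM in depleted cells and 13.4, 15.4 and 15.3 CPM in competent cells. Again the groups were apart, with a 1.36-fold rise (log2 change 0.45, SE 0.090, adjusted p = 0.000567).

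The other cyclase genes of the set did not pass. Adcy3 (ENSMUSG00000020654; chromosome 12, 4133103 to 4213525, plus strand) encodes the cyclase whose protein is widely used as a marker of primary cilia in neurons. It had 4.00, 3.71 and 3.31 CPM in depleted cells and 3.55, 3.42 and 3.40 CPM in competent cells. The groups overlapped, and the log2 change was 0.08 (SE 0.13, adjusted p = 0.604). Of the Adcy3 exon length, 22.1% overlaps Cenpo on the opposite strand, and since the strand setting of the counting is not given in the sources used here, reads of the 2 genes may not be told apart. Adcy7 (ENSMUSG00000031659; chromosome 8, 88272403 to 88329962, plus strand), which encodes a cyclase best known from blood cells, had 10, 10 and 11 counts in depleted and 16, 9 and 16 counts in competent samples. At these counts its log2 change of -0.19 carried an SE of 0.37 (adjusted p = 0.662), so a difference was not detectable at this depth.

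Set on a per-length scale, CPM divided by the kilobases of annotated exon, the 4 cyclases summed to 33.4 ± 2.53 CPM per kb in depleted and 25.8 ± 1.14 CPM per kb in competent cells (SD, n = 3 each). Adcy6 made up 86.5% ± 0.616 of that sum in depleted and 86.7% ± 0.443 in competent cells. The share of Adcy9 was 11.6% ± 0.584 in depleted and 10.95% ± 0.521 in competent cells. Among these 4 genes, the larger total thus came with nearly the same make-up. These sums and shares are descriptions and were not tested. They leave out Adcy1, which is outside the set, at 0.742 CPM per kb in depleted and 1.57 CPM per kb in competent cells. That is above Adcy3, so the make-up over all cyclase genes is not given by these shares.

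All 3 PDE4 genes of the set rose, Pde4b most. Pde4b (ENSMUSG00000028525; chromosome 4, 102087543 to 102607259, plus strand) encodes the PDE4 isoform best known from inflammatory signalling. It had 191, 207 and 121 counts in depleted samples and 43, 49 and 38 counts in competent samples, or 7.57, 6.45 and 3.43 CPM in depleted against 1.26, 1.39 and 1.01 CPM in competent cells. Depleted replicate 3 was the lowest of its group and still above every competent library. The rise was 4.70-fold (log2 change 2.23, SE 0.27, adjusted p = 6.33e-06), which places Pde4b among the 7.38% of genes tested that rose over 2-fold.

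Pde4a (ENSMUSG00000032177; chromosome 9, 21165714 to 21213248, plus strand) had 10.3, 7.51 and 7.96 CPM in depleted cells and 4.23, 4.33 and 4.91 CPM in competent cells. It was higher in every depleted library and rose 1.90-fold (log2 change 0.92, SE 0.13, adjusted p = 2.93e-05). Pde4d (ENSMUSG00000021699; chromosome 13, 108449948 to 109953461, plus strand), a very long gene with 20 annotated transcripts, had 7.92, 8.45 and 6.57 CPM in depleted cells and 5.37, 5.32 and 4.73 CPM in competent cells. Its rise was 1.49-fold with no overlap between the groups (log2 change 0.57, SE 0.12, adjusted p = 0.000764). Long PDE4 isoforms are activated by protein kinase A and short ones lack that site, but counts per gene do not separate isoforms.

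Per kilobase of exon the 3 PDE4 genes summed to 2.31 ± 0.405 CPM per kb in depleted and 1.13 ± 0.0103 CPM per kb in competent cells (SD, n = 3 each). The make-up of the sum differed, in contrast to that of the 4 cyclases. Pde4b held 26.3%, 26.6% and 16.98% of it in depleted libraries and 10.7%, 11.5% and 8.45% in competent libraries, with no overlap. The share of Pde4d was 27.8% ± 3.27 in depleted and 37.9% ± 2.72 in competent cells, and that of Pde4a 48.9% ± 5.84 in depleted and 51.9% ± 4.20 in competent cells. Shares within a sum depend on each other and on the exon lengths used, and they were not tested. The sum leaves out Pde4c, which is outside the set, at 0.493 CPM per kb in depleted and 0.271 CPM per kb in competent cells.

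**Figure D2:**
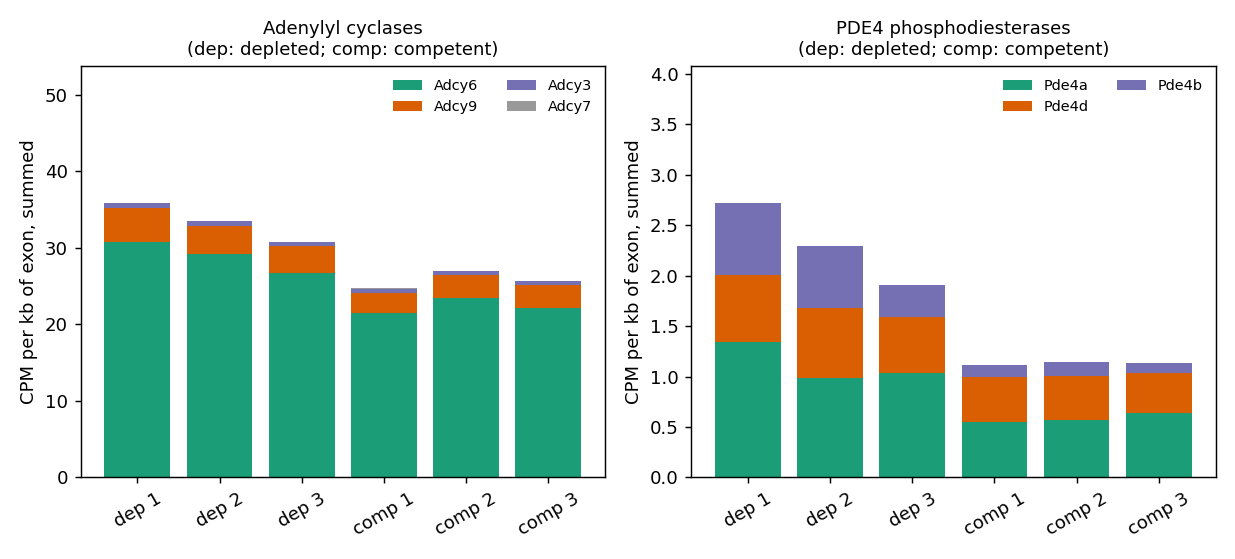
Stacked bars give CPM per kb of annotated exon, summed over the 4 cyclase genes (left panel) and the 3 PDE4 genes (right panel), for the 3 depleted (dep) and 3 competent (comp) libraries. The cyclase bars average 33.4 in depleted and 25.8 in competent libraries with Adcy6 filling most of each, and the PDE4 bars average 2.31 in depleted and 1.13 in competent libraries with a larger Pde4b block in the depleted ones.

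The regulatory subunit genes of protein kinase A fell together. Prkar1a (ENSMUSG00000020612; chromosome 11, 109649405 to 109669656, plus strand) encodes subunit RI-alpha, which holds the catalytic subunit inactive until cAMP binds. It had 287, 278 and 289.7 CPM in depleted cells and 356, 345 and 360.0 CPM in competent cells, the highest level of the 10 genes. The groups lay far apart relative to their spread, although the fall was only 1.24-fold (log2 change -0.31, SE 0.041, adjusted p = 1.45e-05). Prkar2b (ENSMUSG00000002997; chromosome 12, 31958476 to 32061296, minus strand), which encodes subunit RII-beta, had 4.12, 3.77 and 4.13 CPM in depleted cells and 4.87, 6.11 and 5.58 CPM in competent cells. It fell 1.38-fold without overlap (log2 change -0.46, SE 0.12, adjusted p = 0.00437). Per kb of exon, Prkar1a made up 98.4% ± 0.05 of the summed level of both genes in depleted and 98.2% ± 0.23 in competent cells (SD, n = 3 each).

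Crem (ENSMUSG00000063889; chromosome 18, 3266048 to 3337748, minus strand) encodes activating and repressing factors of the CREB family, among them the short repressor ICER, which cAMP itself induces from an internal promoter. The gene had 9.70, 12.5 and 12.3 CPM in depleted cells and 15.4, 16.6 and 13.2 CPM in competent cells. All 3 depleted libraries were below the competent ones, though the highest of the depleted and the lowest of the competent libraries lay close together. Crem fell, with a log2 change of -0.38 (SE 0.11, adjusted p = 0.00645). With 39 annotated transcripts, ICER and the full-length forms were not separated by the gene count. A gene on the opposite strand overlaps 8.01% of the Crem exon length, and for Adcy6 this share was 8.92%.

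On the per-length scale the order of levels in depleted cells was Prkar1a (65.95 CPM per kb), Adcy6 (28.9), Adcy9 (3.87), Crem (1.95), Pde4a (1.12), Prkar2b (1.10), Pde4d (0.637), Adcy3 (0.588), Pde4b (0.551) and Adcy7 (0.0505). The ranges over libraries overlapped between Pde4a and Prkar2b, and among Pde4d, Adcy3 and Pde4b, so these neighbours did not differ beyond their spread. In competent cells the order was Prkar1a (81.8 CPM per kb), Adcy6 (22.4), Adcy9 (2.83), Crem (2.55), Prkar2b (1.51), Pde4a (0.587), Adcy3 (0.554), Pde4d (0.428), Pde4b (0.116) and Adcy7 (0.0569). There the ranges overlapped between Adcy9 and Crem and between Pde4a and Adcy3. Dividing by the longest coding transcript in place of all exons placed the 3 PDE4 genes of the set above Prkar2b in depleted cells, at 1.85 CPM per kb for Pde4a, 1.82 for Pde4d, 1.35 for Pde4b and 1.19 for Prkar2b.

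Transcript length moved with the group comparison. The length of the longest coding transcript and the log2 change had a Spearman's rho of 0.326 over 13831 genes, a description only, since genes share the same 6 libraries. Protein-coding genes of the length of Adcy6 and Adcy7 (5166 to 6760 nt) had a median log2 change of 0.22, those of the length of Adcy3, Adcy9 and Pde4a (4335 to 5164 nt) 0.15, and those of the length of Pde4b and Pde4d (3690 to 4334 nt) 0.12. With this trend removed, the log2 change was 0.12 for Adcy6 and 0.23 for Adcy9, smaller than the values above, and both still passed (adjusted p = 0.0227 and 0.0196). The rises of Pde4b (2.04), Pde4a (0.72) and Pde4d (0.38) and the falls of Prkar1a (-0.47), Prkar2b (-0.61) and Crem (-0.50) passed as well. Adcy3 turned to -0.13 without passing.

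**Figure D3:**
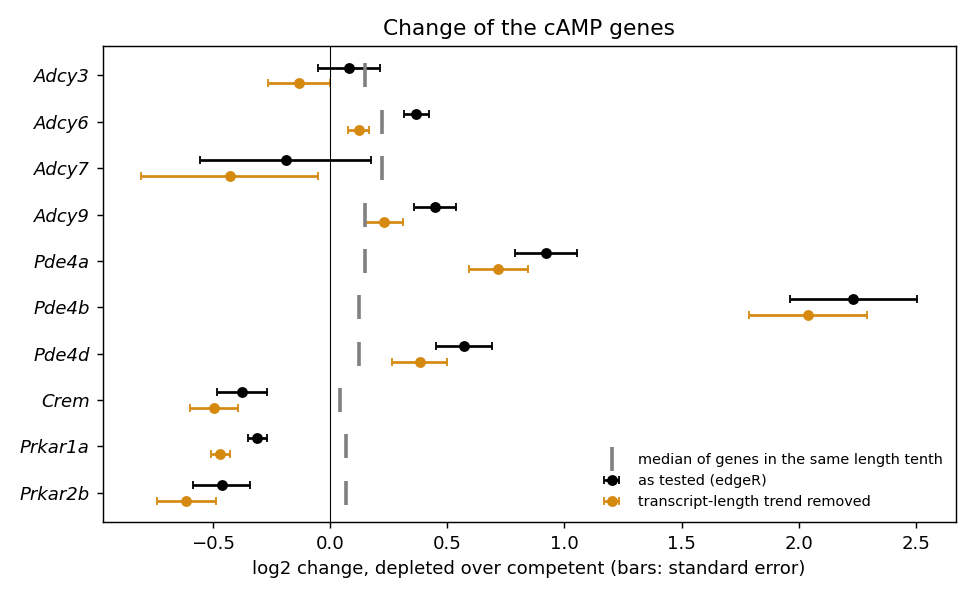
Log2 change, depleted over competent, of the 10 genes as tested (black) and after removal of the trend with transcript length (orange), with bars of 1 standard error, and the median of all protein-coding genes in the same bin of transcript length (grey tick). Pde4b stands at 2.23 and 2.04, the fallen genes move further below 0 when the trend is removed, and Adcy6 moves from 0.37 to 0.12.

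The rest of the pathway was read from 11 lists of 109 genes, chosen by role. Of the 64 that could be tested, 35 rose, 15 fell and 14 did not pass, so 50 were called. Over all genes tested, 69.2% were called, 34.9% as higher and 34.3% as lower in depleted cells. The lists were chosen with earlier results of these data known, and 11 of the rises are CREB targets. Receptors were sparse. Of 15 receptor genes that raise cAMP, 6 were tested, 2 rose and 2 fell (median log2 change -0.66, against -0.01 for all genes tested). The sign of that median depended on the filter, since it was 0.92 over the 3 genes tested with at least 1 CPM in 3 samples and 0.07 over 14 genes with no filter. Ptger4, a prostaglandin E2 receptor gene, rose 2.45-fold, at 101 CPM in depleted and 41.3 CPM in competent cells (adjusted p = 1.05e-09). Genes on the opposite strand overlap 16.5% of the Ptger4 exon length. Calcrl, which encodes part of the CGRP and adrenomedullin receptors, was 1.80-fold lower in depleted cells (adjusted p = 0.0285), a call lost under 7 of 12 alternatives (adjusted p 0.00819 to 0.12). The other receptor gene of this list that fell, Gpr161, was 1.71-fold lower, at 3.45 CPM in depleted and 5.93 CPM in competent cells (adjusted p = 3.91e-05). The secretin receptor gene Sctr, the main cAMP-raising receptor of the bile duct, had 13 counts in all depleted and 11 in all competent samples and was not tested. Of 15 receptor genes that lower cAMP only 2 were tested, and Sstr2, a somatostatin receptor gene, rose 1.43-fold (adjusted p = 0.0446), a call lost under 10 of 13 alternatives (adjusted p 0.0352 to 0.145).

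Of 8 genes for G protein alpha subunits and the Gs chaperone RIC8B, 2 rose and 4 fell, and the median log2 change was -0.22. Over all genes tested, 34.9% were called higher and 34.3% lower. All 3 Gnai genes, of the inhibitory Gi subunits, fell, Gnai1 by 1.58-fold, Gnai2 by 1.57-fold and Gnai3 by 1.40-fold. Gnao1 and Gnaz of the same list did not pass (log2 change 0.20 and -0.07, adjusted p = 0.173 and 0.506). Gnas, which encodes the stimulatory Gs subunit, fell, at 537 CPM in depleted and 697 CPM in competent cells (log2 change -0.38, adjusted p = 1.29e-05), with 22% of its exon length overlapped on the opposite strand. Gnal, which encodes the Gs-like subunit first known from olfactory neurons, rose 2.74-fold to 4.97 CPM in depleted cells, against 1.80 CPM in competent cells, and Ric8b rose 1.83-fold.

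Among the remaining cyclases, 2 of 6 were tested and Adcy1, which encodes a cyclase stimulated by calcium and calmodulin, fell 2.11-fold, at 9.30 CPM in depleted and 19.6 CPM in competent cells (adjusted p = 1.20e-07). Adcy4 had 1 count in all 6 samples and Adcy2 had 0. Of 13 further cAMP phosphodiesterases 5 were tested, 2 rose and 0 fell, where 34.9% of all genes tested were called higher and 34.3% lower. The risers were Pde7a (1.47-fold, adjusted p = 2.84e-07), a cAMP-specific enzyme gene, and Pde4c (1.79-fold, adjusted p = 0.00298), the remaining PDE4 gene. Pde3b did not pass, with a log2 change of -0.06, but was called lower with the length trend removed (log2 change -0.32, adjusted p = 0.0043). Without competent replicate 2, Pde1c was called higher (log2 change 0.94, adjusted p = 0.0429).

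All 5 tested genes of the other subunits and inhibitor peptides of protein kinase A fell (median log2 change -0.48), against a background of 34.3% of genes called lower. Each of these 5 genes also fell under every alternative tried. The catalytic subunit gene Prkaca had 42.6 CPM in depleted and 59.3 CPM in competent cells (1.39-fold lower, adjusted p = 8.61e-07), Prkacb was 1.32-fold lower and the regulatory subunit gene Prkar2a 1.47-fold lower. Pkig and Pkia, genes of inhibitors of the catalytic subunit, were 1.71-fold and 1.11-fold lower (adjusted p = 3.61e-07 and 0.0129). Rapgef3, which encodes EPAC1, the cAMP sensor that acts on Rap proteins without the kinase, rose 2.02-fold, at 15.6 CPM in depleted and 7.72 CPM in competent cells (adjusted p = 2.49e-07).

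Of 10 tested anchoring protein genes, which place protein kinase A at sites in the cell, 6 rose and 2 fell, where 34.9% of all genes tested were called higher and 34.3% lower (median log2 change 0.38, and 0.18 with the length trend removed). Akap13 rose 1.85-fold and Akap12 1.53-fold, whereas Akap5 fell 2.76-fold to 14.3 CPM in depleted cells, against 39.5 CPM in competent cells (adjusted p = 1.32e-08). Of 9 CREB factors, coactivators and the kinases SIK2 and SIK3 that restrain them, 8 rose (median log2 change 0.44), beside the same background. The acetyltransferase genes Crebbp and Ep300 rose 1.78-fold and 1.63-fold, and the coactivator gene Crtc1 1.49-fold. With the length trend removed, 6 of the 9 rose and 1 fell.

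Of 12 genes commonly used as CREB targets 11 were tested and all rose (median log2 change 3.34), led by Fos (32.5-fold), Nr4a1 (22.1-fold) and Dusp1 (15.4-fold). Over all genes tested, 34.9% were called higher. The list was chosen with earlier results of these data known, so its count is a description only. With the length trend removed 10 rose. As background, several of them are also immediate-early genes that respond to many signals. What raised them was not tested. Of 5 channels and transporters of ductal secretion 2 rose and 1 fell (median log2 change -0.06), where 34.9% of all genes were called higher and 34.3% lower. The anion exchanger gene Slc4a2 rose 1.24-fold, the cotransporter gene Slc12a2 fell 1.40-fold, and Cftr did not pass, at 1.66 ± 0.153 CPM in depleted and 2.03 ± 0.261 CPM in competent cells (SD, n = 3 each, adjusted p = 0.184). The chloride channel gene Ano1 was 1.11-fold higher (adjusted p = 0.00804), a rise that turned to a log2 change of -0.06 with the length trend removed. Under the same removal Cftr was called lower (log2 change -0.53, adjusted p = 0.0173) and the rise of Slc4a2 shrank to a log2 change of 0.12 (adjusted p = 0.00938). Genes on the opposite strand overlap 13.7% of the Slc4a2 exon length.

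**Figure D4:**
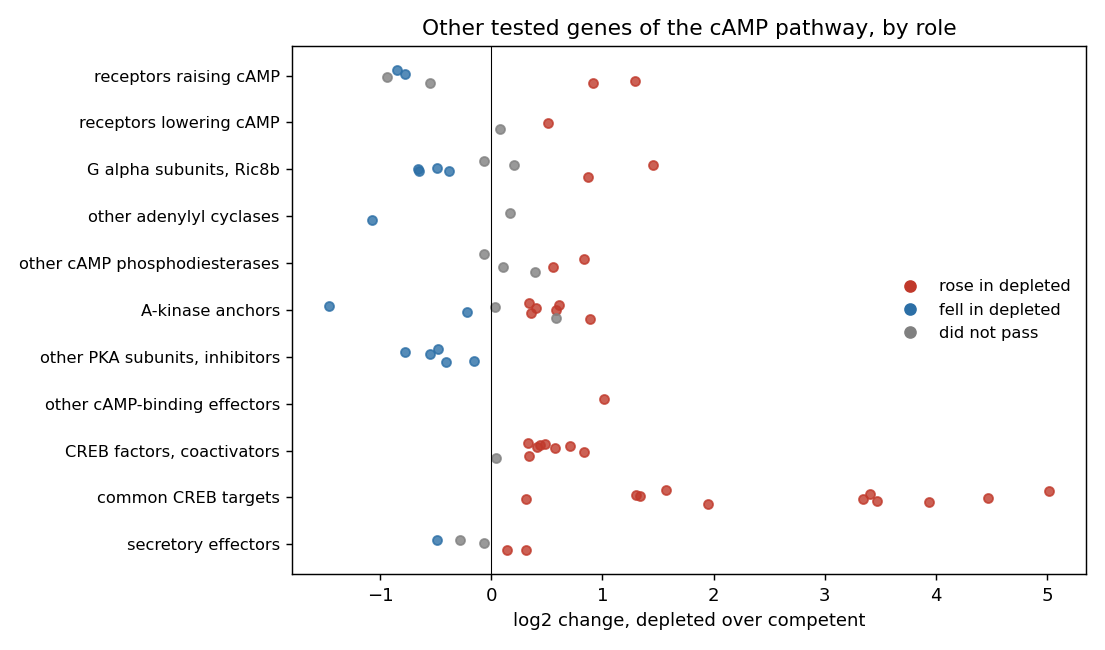
Log2 change, depleted over competent, of each tested gene of the 11 lists, with a row for each role and points in red (rose), blue (fell) or grey (did not pass). All 5 points of the other protein kinase A subunits and inhibitors lie below 0, and the 11 CREB targets lie above 0 and reach 5.02 for Fos.

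The genes whose pattern over the 6 libraries lay closest to Pde4b, by Euclidean distance between log2 CPM values centred on each gene's mean among 10495 genes, were Pik3c2g (distance 0.657), Nod2 (0.701) and Dleu2 (0.703), which rose 3.59-fold, 5.12-fold and 3.94-fold. For Prkar2b, the gene that fell most, they were Ccdc167 (0.101), Esrp1 (0.113) and Zfp365 (0.118), lower by 1.38-fold, 1.42-fold and 1.33-fold. Since the libraries form only 2 groups, closeness mainly reflects a like difference between the groups.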

How the data were processed

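The deposited values were raw counts per gene, whole numbers not normalized by the authors, in a table of 32061 genes. The build was GRCm38, and STAR 2.7.1a, cutadapt 1.16, featureCounts, DESeq2 1.34.0, FastQC 0.11.9 and MultiQC 1.3 are named, per the submitters' processing notes; annotation and strand setting are not given in the sources used here. Columns named KO were taken as cilia depleted and those named WT as cilia competent, with the number as replicate. Counts were filtered by filterByExpr, scaled by TMM and tested with edgeR 4.0.16 in R 4.3.3 (glmQLFit, glmQLFTest, two-sided, group as the only term), adjusted over 13839 genes at a threshold of 0.05. Coordinates and lengths came from GENCODE M21. Levels per kb used the union of annotated exons. No library was a duplicate of another: within groups, chi-square over its degrees of freedom was 5.33 to 9.44. Members and lists were chosen with earlier results of these data known. From each list the text names up to 3 called genes of largest change, the 2 highest expressed where none passed, and others picked after their values were seen. Some results the rule names are not reported here. For the largest rise and the largest fall among the 10 genes it also names the 3 closest genes, with a mean log2 CPM of at least 2, from log2(CPM + 0.1). The code was tested on simulated counts. Alternatives were RLE and upper-quartile scaling, DESeq2 1.42.0, no filter, 1 CPM in 3 samples, a replicate block, leaving out each sample, and removal of the length trend by loess (span 0.5). The length alternative rests on 13831 genes with a length.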

Additional observations from a re-analysis of the deposited data

How the results depend on the processing

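All 8 calls among the 10 genes held, in direction and at an adjusted p below 0.05, under each of the 13 alternatives, with log2 changes of 2.01 to 2.52 for Pde4b, 0.72 to 1.01 for Pde4a, 0.38 to 0.67 for Pde4d, 0.12 to 0.42 for Adcy6, 0.23 to 0.52 for Adcy9, -0.50 to -0.28 for Crem, -0.47 to -0.29 for Prkar1a and -0.61 to -0.39 for Prkar2b. Removal of the length trend reversed the log2 changes of Adcy3 (-0.13) and Ano1 (-0.057), neither of which then passed. Over the 36 named genes tested, 446 of 466 values kept direction and call; the other changes were lost calls of Calcrl, Sstr2 and Ano1. The number of genes changed over the table was 8929 to 9333 when a sample was left out and 9093 with DESeq2. With the length trend removed 4161 genes were higher and 5493 lower, against 4832 and 4744 in the main analysis, and with upper-quartile scaling 4434 and 5236. The replicate numbers are not said to pair samples, and deviations from the group means correlated at -0.03 to 0.01 between samples of the same number. With the replicate block 9526 genes were called, and Sstr2 was the only named gene to lose its call. Depth limits Adcy7, Sctr and other receptors of few counts.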
